A study of Mus musculus with 5 samples.

Results

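Wnt ligands, their receptors, secreted inhibitors and nuclear factors were followed through the differentiation of mouse embryonic stem cells (ESCs) to spinal motor neurons. All genes whose symbol is Wnt, Fzd, Sfrp, Dkk or Rspo followed by a digit were taken, together with Lrp5, Lrp6, Axin2, Lef1, Tcf7, Tcf7l1, Tcf7l2, Frzb, Wif1, Porcn and Wls. This gave 52 of the 19893 genes with a matched array probe, namely 19 ligands, 2 genes of ligand lipidation and secretion, 12 receptors and co-receptors, 4 R-spondins, 10 secreted inhibitors, and 5 nuclear factors and targets. RNA came from wild-type male cells with no other genetic change named in the labels. The ES sample was undifferentiated ESCs, and the other 4 samples were embryoid bodies (EBs), free-floating aggregates of differentiating ESCs. The Day2 EBs had been exposed to retinoic acid (RA) for 8 h, the Day3 EBs for 1 day, the Day4 EBs for 2 days and the Day7 sample for 5 days, the last being described as motor neurons in 1 label and as EBs in another. The labels state that RA and Shh were added from day 2 to day 5, and the study's methods name the smoothened agonist SAG. Each time point was measured on 1 single-colour Agilent array, so there were no replicates and no test was made. The EBs were not sorted before RNA extraction as far as the labels say, so each value is an average over all cells present.

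Wnt proteins are secreted lipid-modified signals. Porcn attaches the lipid in the endoplasmic reticulum and Wls carries the ligand to the cell surface, where it binds a Frizzled receptor together with Lrp5 or Lrp6. In the canonical branch this stops the degradation of beta-catenin, which then acts with TCF/LEF proteins on target genes such as Axin2, and R-spondins strengthen the signal by keeping receptors at the membrane. Sfrp proteins, Frzb and Wif1 bind the ligands, and Dkk1, Dkk2 and Dkk4 act on Lrp5 and Lrp6. In the developing spinal cord Wnt1 and Wnt3a are known as roof plate signals of the dorsal side, opposite to the ventral source of Shh.

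RefSeq promoter windows (GRCm38.p6, 250 bases before to 50 bases after a start) were at hand for 35 of the 52 genes, in 43 entries. The hexamer CTTTGA, the core bound by TCF/LEF proteins, was searched on both strands, where its reverse complement reads TCAAAG. It was found in 6 of the 43 windows (14.0%) and in 16.0% of all 32851 windows. All 6 are given here because they carry the binding core of factors whose own levels are described here, with the hexamer in capitals and each stretch written 5′ to 3′ on the strand of its gene. They lie at chr3:131156094-131156199 (+ strand, 1 of 4 starts listed for Lef1), chr19:30549588-30549690 (- strand, Dkk1), chr2:80447466-80447511 (- strand, Frzb), chr6:119449432-119449477 (- strand, 1 of 3 starts of Wnt5b), chr7:98835042-98835087 (+ strand, 1 of 2 starts of Wnt11) and chr5:4758433-4758466 (- strand, Fzd1).
Lef1: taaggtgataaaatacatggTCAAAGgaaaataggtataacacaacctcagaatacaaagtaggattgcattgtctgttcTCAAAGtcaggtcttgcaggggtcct
Dkk1: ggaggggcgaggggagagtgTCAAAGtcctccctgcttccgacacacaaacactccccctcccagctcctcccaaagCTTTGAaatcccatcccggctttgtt
Frzb: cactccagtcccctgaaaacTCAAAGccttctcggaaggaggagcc
Wnt5b: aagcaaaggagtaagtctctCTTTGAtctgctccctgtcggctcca
Wnt11: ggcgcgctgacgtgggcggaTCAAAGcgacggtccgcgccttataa
Fzd1: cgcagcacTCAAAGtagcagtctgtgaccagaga

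The hexamer was present more than once in the windows of Lef1, at -180 and -120 from the start, and of Dkk1 (-174 and -117). The single matches began at -95 for Frzb, -71 for Wnt5b, -50 for Wnt11 and -242 for Fzd1. AGGTCA, the core bound by RA receptors, was present on either strand in the windows of Frzb (+3), Tcf7 (-13) and Wnt16 (-237), that is in 6.98% of the 43 windows against 16.3% of all windows. AGGTCA repeated in the same direction with 5 bases between the copies was in 0 of the 43 and in 0.00913% of all. The stretches before the starts of Wnt10b (chr15:98778151-98778250, - strand) and Sfrp5 (chr19:42202253-42202352, - strand) are given as well, because these genes had the widest ranges over the 5 arrays. Neither hexamer was in their windows. A match is a string of letters and not a shown binding site.
Wnt10b: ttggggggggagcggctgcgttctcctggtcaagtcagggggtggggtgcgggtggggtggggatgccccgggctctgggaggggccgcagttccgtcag
Sfrp5: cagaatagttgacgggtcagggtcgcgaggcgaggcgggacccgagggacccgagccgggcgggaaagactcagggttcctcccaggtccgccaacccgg

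All values are quantile-normalized log2 signals of the brightest probe of a gene, and differences are on the same log2 scale. The scanner software's call "well above background" served as the detection level. A probe below that call on 1 array of a pair gives only a bound, written as "at least" a fold. No fold is given where both arrays fell below it or where the brighter array did not exceed the floor, which is the lowest signal called well above background. The floor lay between 2.60 at Day2 and 5.22 at Day3. A change of 2-fold or more was a fixed rule of size, and "rose" or "fell" is used only of genes past it. Between spots of the same probe on an array the median SD was 0.062 to 0.11, which covers technical error only. The Day2 array stood apart, with 86.7% of mouse probes well above background against 57.5% to 65.7% on the others, and 68.4% of ERCC control spots, whose sequences are not from mouse, against 6.1% to 12.0%. Where a change at Day2 is given for a Wnt gene, its Day3 signal is given as well. The Day7 array was on a second slide by itself, and for it the slide and the stage cannot be told apart.

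The labels were checked against lists of cell type markers. In the means given for these lists, undetected values under the floor of their array were raised to it, and the floor differed between arrays. The mean log2 signal of 6 motor neuron markers such as Isl1 and Slc18a3 was 7.10 in ESCs, 6.56 at Day2, 6.67 at Day3, 7.63 at Day4 and 12.86 at Day7, and that of 6 general neuronal markers was 9.16 in ESCs, 9.87 at Day4 and 15.47 at Day7. The mean of 6 neural progenitor markers was highest at Day4 (11.83, and 10.75 at Day7), although Sox1 was highest at Day3 and Nkx6-1 and Nes at Day7. After Day4, Pax6 fell 34.5-fold and Olig2 17.4-fold, while Nkx6-1 rose 2.99-fold. The mean of 7 pluripotency markers was 11.85 in ESCs, 10.16 at Day4 and 9.18 at Day7. Between Day4 and Day7, 4 of the 7 fell and none rose, against 18.1% of all genes in each direction. Nanog was highest at Day4 (9.98, against 9.20 in ESCs and 8.80 at Day7). Tbx3 was 10.87 in ESCs and 10.57 at Day7. The Day7 sample also held 6 of 6 floor plate markers well above background, at a mean of 13.14 against 8.40 at Day4. From Day4 to Day7, 5 of them rose, among them Shh, the defining signal of that tissue, which was detected at Day7 (12.71) and on no other array, and Nkx2-9 fell 6.35-fold (12.89 to 10.23). Of 8 markers of the roof plate and dorsal neural tube, 6 to 8 were well above background on each array, with means between 6.21 and 6.79. At the last step 3 of the 6 with a value fell and 1 rose, against 18.1% of all genes in each direction. Msx1 rose 4.72-fold from Day3 to Day4 and then fell 10.3-fold to Day7. Pax3 fell 3.20-fold and Msx2 2.25-fold after Day4, and Olig3 rose 3.85-fold. From Day4 to Day7, 3 endoderm markers fell and 1 rose. Of 6, 5 were well above background at Day4 and 3 at Day7, and their mean was 7.84 and 6.66. Sox17 fell at least 16.2-fold, Gata6 14.4-fold and Gata4 5.83-fold, Foxa1 rose from 9.35 to 12.97, and Afp was below the detection level on every array. The means over the 5 arrays lay between 6.98 and 8.28 for mesoderm, 6.25 and 8.31 for mesenchyme and neural crest, and 6.74 and 8.23 for glia. The part of these cell types in the Wnt values was not tested. Fewer cells of a type and less RNA per cell cannot be told apart in such samples.

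Of the 52 Wnt genes, 36 passed the detection level on all 5 arrays and 3 (Wnt2b, Wnt3a and Dkk2) on none. Wnt2, Rspo4 and Dkk4 were detected on Day2 only and Dkk1 on Day4 only. Detected genes numbered 40 in ESCs, 48 at Day2, 40 at Day3, 44 at Day4 and 42 at Day7. These are 76.9%, 92.3%, 76.9%, 84.6% and 80.8% of the 52, against 73.1%, 91.7%, 72.7%, 77.6% and 76.2% of all genes.

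From ES to Day2, 10 of the 48 Wnt genes with a value rose and 9 fell, while 10.7% of all genes rose and 11.3% fell. With a shift of the arrays to their 75th percentiles in place of quantile normalization, 12 rose and 5 fell, against 20.9% and 7.01% of all genes. After 1 day of RA (ES to Day3), 12 of 42 rose and 4 fell, against 15.6% and 10.2% of all genes. Between Day3 and Day4, 7 of 45 rose and 3 fell, where 3.62% of all genes rose and 4.87% fell. From Day4 to Day7, 6 of 46 rose and 20 fell, against 18.1% in each direction for all genes. Over the whole course (ES to Day7), 9 of 43 rose and 12 fell, against 24.8% and 24.4%.

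The step from Day4 to Day7 was the one in which the falls outnumbered the rises most. The median log2 change of the Wnt genes there was -0.71, beside -0.12 for all genes with a value. It was -0.06 beside 0.00 from ES to Day2, 0.34 beside 0.06 from ES to Day3, 0.11 beside -0.01 from Day3 to Day4, and 0.02 beside -0.07 from ES to Day7. Receptors and nuclear factors made up 11 of the 20 genes that fell from Day4 to Day7, whereas none of them rose. Among 16 ligands 4 rose and 5 fell, against 18.1% of all genes in each direction, and with normexp background correction 2 rose and 4 fell.

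**Figure D1:**
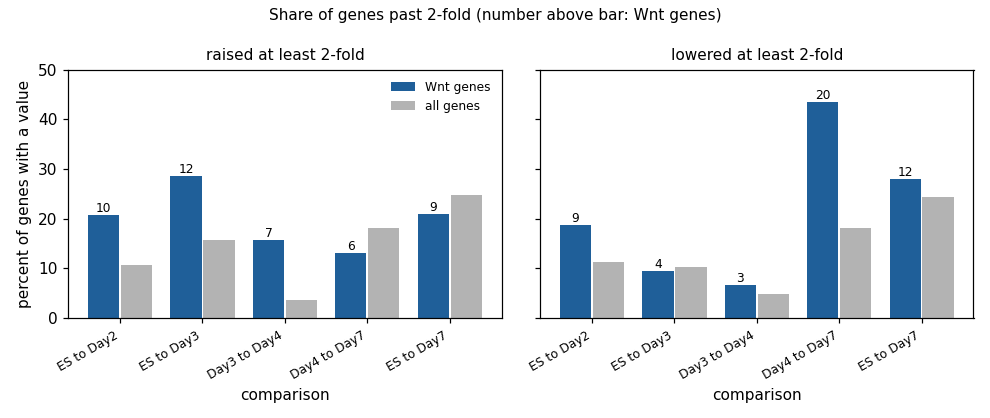
Bars give the percent of genes with a value that were raised (left) or lowered (right) at least 2-fold in each of the 5 comparisons, for the Wnt genes (blue, with their number) and for all genes (grey). The tallest bar is the 20 Wnt genes lowered from Day4 to Day7, 43.5% of those with a value against 18.1% of all genes.

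Each gene was also assigned to the array of its highest detected signal. Of 49 Wnt genes detected on at least 1 array, 17 were highest at Day4, 11 at Day2, 9 at Day7, 7 on ES and 5 at Day3. Of all genes, 13.3% were highest at Day4, 25.8% at Day2, 26.9% at Day7, 21.9% on ES and 12.1% at Day3. The 17 genes of Day4 included 6 Frizzled receptors (Fzd1, Fzd2, Fzd3, Fzd4, Fzd7 and Fzd9), the ligands Wnt5b, Wnt6, Wnt8b and Wnt11, the ligand carrier Wls, the inhibitors Dkk1, Sfrp1 and Sfrp2, the agonist Rspo3, the nuclear factor Tcf7l2 and the target Axin2. Some of these 17 led the next array by little. Among them were Wls (12.11, and 12.05 at Day7), Axin2 (8.70, and 8.64 at Day3) and Fzd2 (14.37, and 14.26 at Day3). The leads of Fzd3 (10.16, and 10.09 at Day7) and Wnt8b (4.81, and 4.70 at Day2) were small too. Other probes of Axin2 and Wnt8b were highest at Day2, and another of Fzd7 at Day3. Small leads among all genes were not counted. Without the Day2 array, 18 of 46 were highest at Day4, against 18.0% of all genes.

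**Figure D2:**
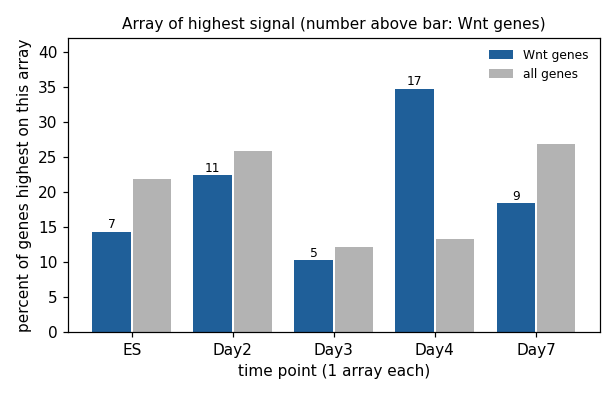
Bars give the percent of genes whose highest detected signal was on each array, for 49 Wnt genes (blue, with their number) and for all genes (grey), with 1 array per time point. Day4 holds 17 Wnt genes, 34.7% against 13.3% of all genes, some of the 17 by a small lead over the next array.

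Among the ligands, Wnt10b had the widest range over the 5 arrays, which rested on Day2. Without that array its log2 span was at least 3.65 (ES to Day4). Beside it stood at least 4.34 for Wnt7a (ES to Day7) and 4.31 for Wnt6 (Day4 to Day7). Wnt10b did not reach the detection level in ESCs (2.89), stood at 11.04 at Day2, 7.48 at Day3 and 7.82 at Day4, and was again not well above background at Day7 (4.35). This was a rise of at least 116-fold from ES to Day2, at least 9.88-fold from ES to Day3, and a fall of at least 9.00-fold from Day4 to Day7. These bounds depended on the floor. On the log2 scale they were 6.86, 3.30 and -3.17, against 4.55, 1.38 and -1.58 with normexp background correction, and with detection set above the ERCC probes the first was 4.46 and the second 0.91, which is under 2-fold. Its neighbour Wnt1, with no protein-coding gene between them, lay between 10.01 (Day2) and 10.81 (ES) by the brighter of its 2 probes, under 2-fold in the 5 comparisons. The other Wnt1 probe was well above background on Day4 alone (5.54), with log2 bounds of 0.32 from Day3 to Day4 and -0.88 from Day4 to Day7. The mean over both probes changed by 1.67 and -1.77 at these steps, past 2-fold. That mean takes in undetected readings of the dimmer probe (2.63 at Day3 and 2.58 at Day7), and neither probe by itself passed 2-fold.

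Wnt8a, a ligand of the early posterior embryo, was highest at Day2 as well. Its log2 signal was 7.92 in ESCs, 10.84 at Day2, 8.57 at Day3, 6.46 at Day4 and 6.45 at Day7. The Day2 value was 7.57-fold and the Day3 value 1.58-fold above ES, Day4 was 4.33-fold below Day3, and Day7 was 2.76-fold below ES, a fall of 0.94 on the log2 scale and so under 2-fold with normexp background correction. Wnt2 was detected on Day2 only (6.40), at least 4.65-fold above ESCs, and measured 2.44 in ESCs, 2.53 at Day3, 2.24 at Day4 and 2.47 at Day7. Under normexp background correction the Wnt2 bound was 0.63 on the log2 scale, under 2-fold, and with detection above the ERCC probes there was none. Wnt8b was detected at Day2 and Day4, at 4.70 and 4.81, and its other probe at Day2 only (7.22).

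Wnt5a and Wnt7a were highest at Day7. Wnt5a, the best known ligand of the beta-catenin-independent branch, had a log2 signal of 7.38 in ESCs, 4.72 at Day2, 6.82 at Day3, 8.85 at Day4 and 10.39 at Day7. It rose 4.06-fold from Day3 to Day4 and a further 2.92-fold to Day7, and ended 8.07-fold above ESCs. Wnt7a, a ligand with a known part in axon and synapse growth, did not reach the detection level in ESCs (4.68) or at Day3 (5.24), and stood at 5.95 at Day2, 7.17 at Day4 and 9.02 at Day7. Both genes thus went up at the last steps, by 3.61-fold from Day4 to Day7 for Wnt7a, which ended at least 20.2-fold above ESCs. That log2 bound of 4.34 was 2.63 with normexp background correction and 2.44 with detection above the ERCC probes. The close relatives took other courses. Wnt5b stayed under 2-fold in the 5 comparisons above, but ran from 9.71 at Day2 to 11.66 at Day4, where it was 2.86-fold above ES. Wnt7b measured 8.32 in ESCs, 4.68 at Day2, 7.45 at Day3, 7.39 at Day4 and 7.89 at Day7, so that only the Day2 array was low, 12.4-fold below ES. That log2 change of -3.63 was -2.25 with the 75th percentile shift, -1.81 with normexp background correction and, under 2-fold, -0.92 with detection above the ERCC probes.

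Wnt6 and Wnt10a, which lie next to each other in the genome, were both higher at Day4 than at Day7. Wnt6 had log2 signals of 7.12 in ESCs, 6.25 at Day2, 8.74 at Day3, 10.55 at Day4 and 6.24 at Day7. It rose 3.07-fold from ES to Day3 and 3.51-fold from Day3 to Day4, and then fell 19.8-fold to Day7. Wnt10a was highest in ESCs at 7.08, and measured 4.45 at Day2, 5.98 at Day3, 6.54 at Day4 and 4.66 at Day7, where it was not well above background. Its change from ES to Day3 was a fall of 2.14-fold and that from Day4 to Day7 a fall of at least 3.68-fold, both under 2-fold with normexp background correction (-0.65 and -0.77 on the log2 scale).

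Wnt3 and Wnt9b, also adjacent, followed different courses. Wnt3, needed for the primitive streak of the embryo, was 7.47 in ESCs, 5.66 at Day2, 4.71 and not well above background at Day3, 4.79 at Day4 and 6.66 at Day7. It fell at least 4.74-fold from ES to Day3 and rose 3.65-fold from Day4 to Day7. Wnt9b, best known from the developing kidney, was 6.17 in ESCs, 4.83 at Day2, 6.91 at Day3, 6.91 at Day4 and 8.01 at Day7. It rose 2.15-fold from Day4 to Day7 and 3.58-fold from ES to Day7. Under normexp background correction the last step was 0.73 for Wnt3 and 0.83 for Wnt9b on the log2 scale, under 2-fold for both. The falls of these 2 genes at Day2, by 1.80 for Wnt3 and by 1.35 for Wnt9b on the log2 scale, were under 2-fold in some of the alternatives. The values were -0.71 and 0.06 with the 75th percentile shift and -0.92 and -0.57 with normexp background correction.

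Wnt9a and its neighbour Wnt3a differed in detection. Wnt9a measured 8.42 in ESCs, 8.93 at Day2, 9.67 at Day3, 9.60 at Day4 and 7.21 at Day7, while Wnt3a was below the detection level on every array. Wnt9a rose 2.38-fold from ES to Day3 and fell 5.25-fold from Day4 to Day7. Wnt11, a ligand of cell movement in the gastrula, was 6.04 in ESCs, 5.33 at Day2, 7.84 at Day3, 8.16 at Day4 and 6.54 at Day7. It was 3.48-fold higher at Day3 than in ESCs and 3.09-fold lower at Day7 than at Day4. Wnt4, which is expressed in the floor plate and in many epithelia, was 7.25, 6.90, 8.51, 8.08 and 8.93 on ES, Day2, Day3, Day4 and Day7. The rise of Wnt4 was 2.39-fold by Day3 and 3.20-fold by Day7. Wnt16 lay between 6.34 and 6.57 on all arrays but Day2 (5.14), and its probes differed there, with log2 changes from ES of -1.27 and 0.69, the first being 0.03 with the 75th percentile shift.

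**Figure D3:**
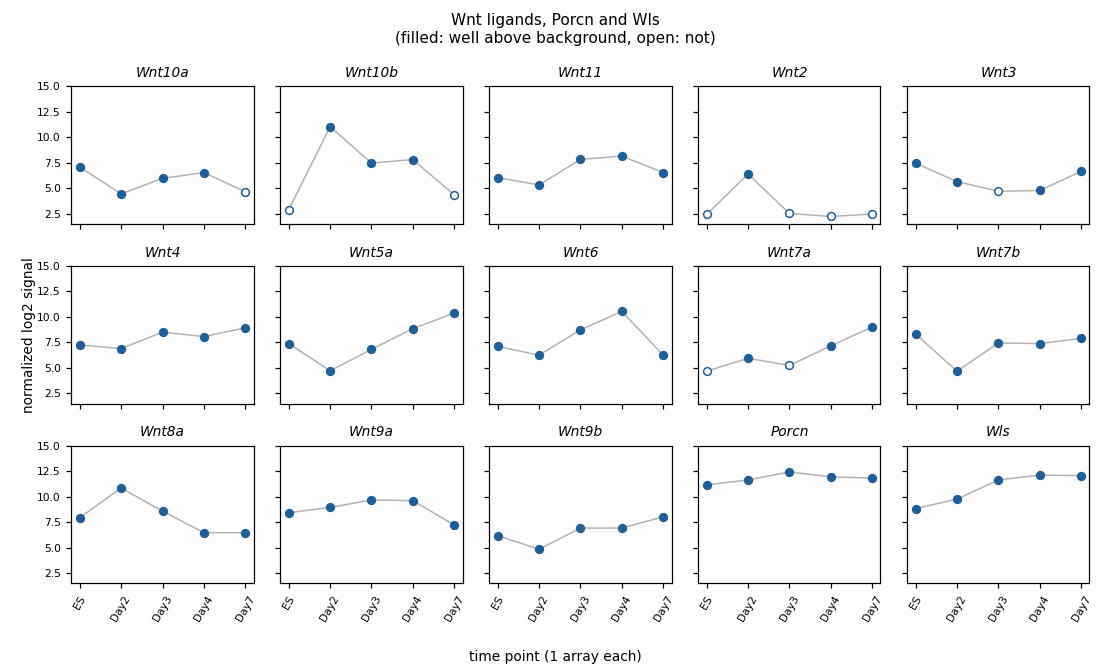
Each panel plots the normalized log2 signal of 1 gene on the 5 arrays, with filled points well above background and open points not, for the 13 ligands with a range of at least 2 on the log2 scale and for Porcn and Wls. Wnt10b, Wnt8a and Wnt2 are highest at Day2, Wnt6 and Wnt11 at Day4, and Wnt5a and Wnt7a at Day7.

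Both genes that make ligands ready for release rose by Day3, and Wls was still past 2-fold at Day7. Wls, the carrier of lipid-modified Wnt proteins, had log2 signals of 8.83 in ESCs, 9.75 at Day2, 11.64 at Day3, 12.11 at Day4 and 12.05 at Day7. It was 7.03-fold above ES at Day3 and 9.34-fold above at Day7. Porcn, the enzyme that attaches the lipid, was 11.15 in ESCs, 11.63 at Day2, 12.42 at Day3, 11.93 at Day4 and 11.82 at Day7, and was 2.41-fold above ES at Day3 and 1.59-fold above at Day7. The 2.60 to 2.86 and 1.16 to 1.27 on the log2 scale that the alternatives gave for Wls and Porcn from ES to Day3 all lay past 2-fold.

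All 12 receptors and co-receptors were well above background on every array. From Day4 to Day7, 7 of the 12 fell (Fzd2, Fzd4, Fzd5, Fzd6, Fzd8, Fzd9 and Fzd10) and none rose, against 18.1% of all genes in each direction. Their median log2 change was -1.24, beside -0.12 for all genes. Under the alternatives 6 to 8 receptors fell at this step and none rose.

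Fzd2 and Fzd8 rose first and fell later. Fzd2 had log2 signals of 11.57 in ESCs, 12.69 at Day2, 14.26 at Day3, 14.37 at Day4 and 12.10 at Day7. The rise was 6.46-fold from ES to Day3 and the fall 4.82-fold from Day4 to Day7. Fzd8 measured 7.17 in ESCs, 8.49 at Day2, 9.93 at Day3, 9.81 at Day4 and 7.22 at Day7, a rise of 6.77-fold to Day3 and a fall of 6.0-fold after Day4. By these probes both receptors returned to within 2-fold of their level in ESCs, whereas the other Fzd2 probe ended 1.02 above it on the log2 scale. At Day2 the change of Fzd2 was 1.12 on the log2 scale, but its probes gave -0.09 and 1.12.

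Fzd4, Fzd6, Fzd10 and Fzd5 fell between Day4 and Day7 without an earlier rise at Day3. Fzd4, also the receptor of norrin in the retina, was 8.70 in ESCs, 9.53 at Day2, 9.55 at Day3, 10.54 at Day4 and 7.91 at Day7. Its Day4 signal was 3.57-fold above ES, and the last step was a fall of 6.17-fold. Fzd6, a receptor of planar cell polarity, was 8.44 in ESCs, 11.21 at Day2, 9.39 at Day3, 9.33 at Day4 and 7.42 at Day7. Its signal was 6.82-fold above ES at Day2 and 1.93-fold above at Day3, and the last step was a fall of 3.75-fold. Fzd10 was 9.87 in ESCs, 10.45 at Day2, 10.23 at Day3, 10.12 at Day4 and 7.79 at Day7, 5.01-fold below Day4. Fzd5 was 7.07 in ESCs, 7.64 at Day2, 6.79 at Day3, 6.78 at Day4 and 5.48 at Day7, 2.47-fold below Day4 and 3.02-fold below ES. Under normexp background correction these changes of Fzd5 were -0.50 and -0.78 on the log2 scale, under 2-fold, and the change of Fzd5 at Day2 was 0.57 by 1 probe (1.03 with the 75th percentile shift) and -2.14 by another. From ES to Day3 these probes changed by -0.29 and -1.35.

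Fzd1 was the receptor whose brightest probe rose at least 2-fold from ES to Day7. Its log2 signal was 9.33 in ESCs, 8.80 at Day2, 9.66 at Day3, 11.00 at Day4 and 10.65 at Day7, with a rise of 2.53-fold from Day3 to Day4 and of 2.50-fold from ES to Day7. The co-receptors Lrp5 and Lrp6 had ranges of 0.84 and 0.55 and stayed under 2-fold in the 5 comparisons, except that the change of Lrp5 from ES to Day7 was -1.06 with the 75th percentile shift and with the deposited table. Fzd3, a receptor of axon guidance, ran from 9.00 at Day2 to 10.16 at Day4. Fzd7 had a range of 0.95 by its brightest probe, but another probe changed by 2.05 (log2) from ES to Day3 and fell by 2.56 from Day4 to Day7. Fzd9 was 10.42 at Day4 and 9.25 at Day7, 2.26-fold lower.

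R-spondins moved in different directions. Rspo1 had log2 signals of 11.22 in ESCs, 11.44 at Day2, 11.32 at Day3, 10.17 at Day4 and 8.56 at Day7. It fell 2.22-fold from Day3 to Day4, a further 3.06-fold to Day7, and 6.34-fold in all from ES. Rspo3 was 6.01 in ESCs, 3.67 at Day2, 5.71 at Day3, 7.10 at Day4 and 5.31 at Day7. Day4 was thus its highest array, 2.63-fold above Day3 and 3.46-fold above Day7, although both steps were under 2-fold with normexp background correction (0.79 and -0.89 on the log2 scale). Rspo2 did not reach the detection level in ESCs (2.81) or at Day3 (3.69), and stood at 3.08 at Day2, 5.31 at Day4 and 5.69 at Day7, at least 2.85-fold above ES at the end, a log2 bound of 1.51 that was 0.45 with normexp background correction and was lost with detection above the ERCC probes. Rspo4 was called detected on Day2 only, at 4.45, although it read higher, and below the detection level, in ESCs (5.04) and at Day3 (5.22).

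**Figure D4:**
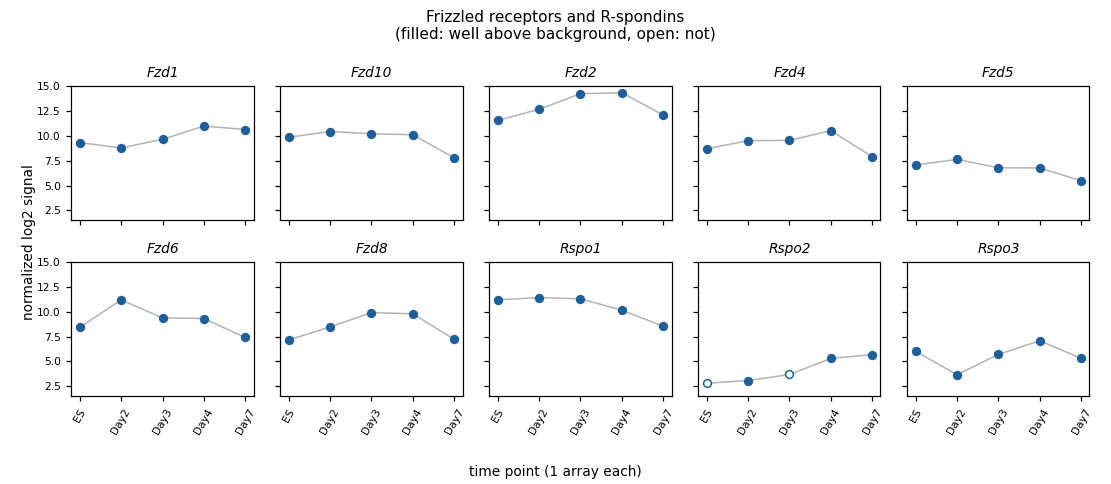
Each panel plots the normalized log2 signal of 1 gene on the 5 arrays, with filled points well above background and open points not, for the 7 receptors and 3 R-spondins with a range of at least 2 on the log2 scale. Fzd2, Fzd4, Fzd5, Fzd6, Fzd8 and Fzd10 are lower at Day7 than at Day4, Fzd1 differs by less than 2-fold between them, and Rspo1 is lowest at Day7.

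Secreted inhibitors gave some of the largest changes. Sfrp5, a Frizzled-related protein that binds Wnt ligands, had log2 signals of 8.13 in ESCs, 9.27 at Day2, 12.51 at Day3, 11.65 at Day4 and 6.25 at Day7. It rose 20.7-fold from ES to Day3 and fell 42.2-fold from Day4 to Day7, to 3.69-fold below ES. Sfrp4, of the same family, ran the other way. It was 8.14 in ESCs, 6.37 at Day2, 5.82 at Day3, 3.21 and not well above background at Day4, and 8.48 at Day7. This was a fall of 5.01-fold from ES to Day3 and a rise of at least 21.6-fold from Day4 to Day7. With normexp background correction these changes were -1.43 and 2.44 on the log2 scale rather than -2.33 and 4.43, and with detection above the ERCC probes the second was 3.48. Sfrp2, which is present in neural progenitors, lay at 10.82 to 11.58 on the other arrays and at 12.81 at Day4, 2.59-fold above Day3 and 2.35-fold above Day7. Sfrp1 lay between 9.32 and 10.48 and stayed under 2-fold in the 5 comparisons.

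Frzb and Dkk3 were both highest at Day7. Frzb, a relative of the Sfrp proteins, did not reach the detection level in ESCs (2.80) and measured 3.87 at Day2, 5.64 at Day3, 6.04 at Day4 and 6.23 at Day7. It was at least 2.75-fold above ES at Day3 and at least 4.13-fold at Day7, but under normexp background correction these log2 bounds were 0.30 and 0.64, and with detection above the ERCC probes neither comparison gave a fold. Dkk3, a Dickkopf relative that does not bind Lrp6 as Dkk1 does, was 8.87 in ESCs, 8.08 at Day2, 9.28 at Day3, 10.54 at Day4 and 11.26 at Day7. The rise of Dkk3 was 2.39-fold from Day3 to Day4 and 5.21-fold from ES to Day7, and no alternative brought it under 2-fold.

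Wif1, which binds ligands outside the cell, was detected at the start and at the end but not at Day3 or Day4. Its log2 signal was 5.32 in ESCs, 7.32 at Day2, 2.23 at Day3, 2.11 at Day4 and 6.26 at Day7, the middle values being below the detection level. It was 4.0-fold higher at Day2 than in ESCs, with a log2 bound of -0.10 from ES to Day3, and at least 4.62-fold higher at Day7 than at Day4, and the Day2 change was 0.94 on the log2 scale with normexp background correction, under 2-fold, and had no value with detection above the ERCC probes. The log2 bound from Day4 to Day7 was 2.21, against 1.06 and 1.26 under these alternatives. Dkk1 reached 5.55 at Day4 and did not reach the detection level in ESCs (4.81), at Day2 (2.60), at Day3 (3.73) or at Day7 (4.37), with bounds under 2-fold from Day3 to Day4 (0.33 on the log2 scale) and from Day4 to Day7 (-0.89). Against the low floor of Day2, Day4 was at least 7.73-fold higher, but it lay under the Day2 detection level set by the ERCC probes (7.39). With the 75th percentile shift the step from Day4 to Day7 was -1.22. Dkk4 was detected on Day2 only (5.83, beside 4.08 at Day3), at least 3.05-fold above ES, a log2 bound of 1.61 that was 0.66 with normexp background correction and was lost with detection above the ERCC probes.

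Of the TCF/LEF factors, Lef1 fell first. Its log2 signal was 10.53 in ESCs, 8.90 at Day2, 7.51 at Day3, 7.39 at Day4 and 6.37 at Day7, a fall of 3.09-fold by Day2, 8.09-fold by Day3 and 17.8-fold by Day7. The factors Tcf7, Tcf7l1 and Tcf7l2 stayed within 2-fold of ESCs at Day2 and Day3 by their brightest probes and fell after Day4. The exceptions at Day2 were Tcf7l1 with the 75th percentile shift (-1.03) and another probe of Tcf7l2 (-1.55). Tcf7 was 10.29 in ESCs, 10.65 at Day2, 10.31 at Day3, 9.96 at Day4 and 7.76 at Day7, 4.58-fold below Day4. Tcf7l1, a repressor of Wnt targets in ESCs, was 12.41, 11.72, 12.28, 12.16 and 10.40 on ES, Day2, Day3, Day4 and Day7, 3.37-fold below Day4 at the end. Tcf7l2 was 9.82 in ESCs, 9.19 at Day2, 9.79 at Day3, 10.03 at Day4 and 8.34 at Day7, a fall of 3.23-fold after Day4, while its other probes changed by -0.82 and -0.77 on the log2 scale at that step. All 4 factors fell from Day4 to Day7 and from ES to Day7, where 18.1% and 24.4% of all genes fell. The alternatives changed this in 2 cases, with Lef1 at -0.60 from Day4 to Day7 under normexp background correction and Tcf7l2 at -0.87 from ES to Day7 as the mean over its probes.

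Axin2, a negative regulator that is itself a widely used target of beta-catenin, rose early by its brightest probe. It measured 7.36 in ESCs, 7.64 at Day2, 8.64 at Day3, 8.70 at Day4 and 8.00 at Day7, 2.42-fold above ES at Day3. Its other probe read 5.59 in ESCs, 6.32 at Day2, 5.35 at Day3, 6.12 at Day4 and 4.51 at Day7, the Day3 and Day7 values being not well above background. The probes thus differed in direction from ES to Day3 (1.28 and -0.24), and their mean changed by 0.52, which is under 2-fold. From Day4 to Day7 the brightest probe changed by -0.70 and the other by a log2 bound of -1.47. The mean of the probes, which takes in undetected readings, changed by -1.16 at that step, past 2-fold. From ES to Day7 the probes again differed in direction (0.64 and a bound of -0.93).

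**Figure D5:**
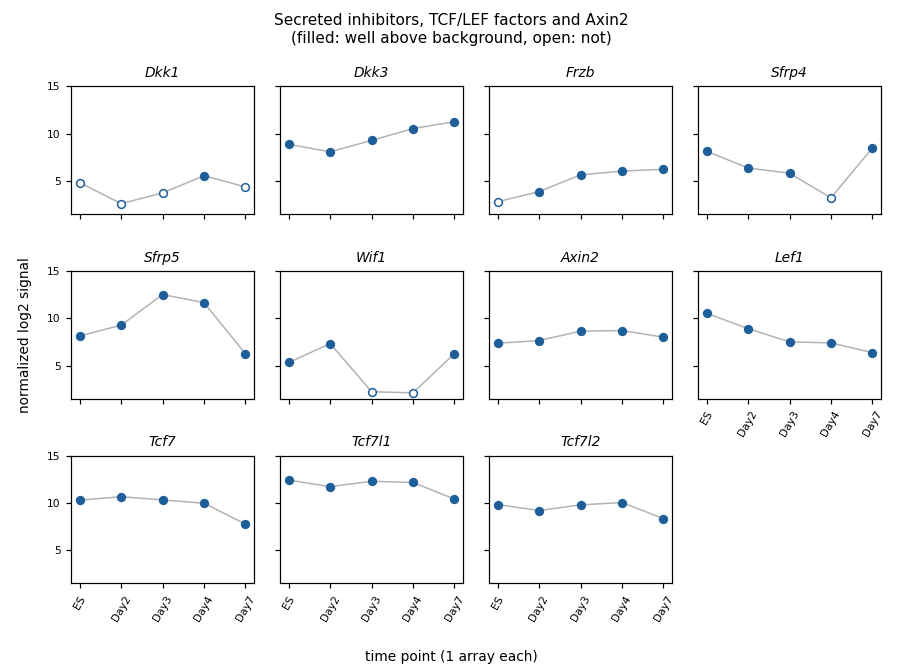
Each panel plots the normalized log2 signal of 1 gene on the 5 arrays, with filled points well above background and open points not, for 6 secreted inhibitors, the 4 TCF/LEF factors and Axin2. Sfrp5 is highest at Day3 and lowest at Day7, Sfrp4 is lowest at Day4, Dkk3 is highest at Day7, and the 4 TCF/LEF factors are lowest at Day7.

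Of the 52 genes, 10 had more than 1 probe. Values from several probes could be set beside each other in 39 pairs of gene and comparison, and they differed by more than 1 on the log2 scale in 12 of them. None had probes past 2-fold in opposite directions.

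Other genes of the pathway were taken by list. The 14 genes of the beta-catenin destruction complex and signal relay included 4 that rose from ES to Day7 and none that fell, against 24.8% and 24.4% of all genes. Their median was 0.56 beside -0.07 for all genes, and 0.05 beside -0.35 with the 75th percentile shift. Apc2, a neuronal relative of the scaffold Apc, changed most, by 5.56 on the log2 scale, from 9.34 in ESCs to 14.91 at Day7. The ubiquitin ligase subunit Btrc rose by 2.99, from 8.63 to 11.61, and the kinase Csnk1e by 2.80, from 11.30 to 14.10. Ctnnb1, which encodes beta-catenin, lay between 13.95 and 14.54 on all arrays. Of 14 nuclear co-factors, 6 rose from ES to Day7 and 2 fell, against the same shares of all genes, with a median of 0.65. With the 75th percentile shift 3 rose and 3 fell, with a median of 0.18. They included the co-repressor Tle2 (2.75), the beta-catenin partner Bcl9 (1.73) and Pygo1, whose log2 bound was 2.12.

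Surface regulators of the pathway fell more often than they rose at the last step. Of 19 such genes, 18 had a value from Day4 to Day7, of which 2 rose and 7 fell, against 18.1% of all genes in each direction, with a median of -0.84 beside -0.12, and the alternatives gave 0 to 3 that rose and 4 to 9 that fell. From ES to Day7 the R-spondin receptor Lgr4 fell by 2.08 on the log2 scale and the Dkk receptor Kremen2 by 2.16, while the glypican Gpc6 had a bound of 3.75. Among 16 other reported targets, 13 had a value from Day4 to Day7, and 4 fell and none rose, against the same 18.1%, with 3 to 6 that fell under the alternatives. From ES to Day7, 3 of 14 rose and 5 fell, against 24.8% and 24.4%. The mesoderm gene T and the posterior gene Cdx2 ended at log2 bounds of -2.55 and -2.13 against ESCs, whereas Nkd1, a feedback inhibitor, rose by 1.93. The list shares Lgr5, Znrf3, Apcdd1, Notum, Tnfrsf19 and Dact1 with the surface and polarity lists.

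Planar cell polarity genes rose in more cases than they fell. Of 10 measured genes, 6 rose from ES to Day7 and 1 fell, against 24.8% and 24.4% of all genes, with a median of 1.24 beside -0.07. The alternatives gave 5 to 6 that rose and 1 to 2 that fell. Celsr2 and Celsr3, atypical cadherins of axon tracts, rose by 4.16 and 2.94 on the log2 scale, and the formin Daam1 by 1.68. The rise of Prickle2 was a bound of 1.10. The gene that fell was Vangl1 (-1.29), and Vangl2 changed by -0.97, under 2-fold. Celsr3 moved at the last step alone, from 10.24 at Day4 to 14.12 at Day7. Prickle3 was not analysed here.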

How the data were processed

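Per the labels, RNA was labelled with Cy3 from 1 sample per time point. The authors deposited, for each array, the output of Agilent Feature Extraction (10.5.1, per the submitters' processing notes), where spot intensity is background-subtracted and no normalization across arrays was applied. A deposited table of log2 values was also at hand. Its values equal the log2 processed intensity minus the 75th percentile of the array. It has no column of any other sample.

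After control and outlier spots were dropped, log2 intensity was averaged over the spots of a probe and quantile-normalized with limma 3.58.1 (R 4.3.3), since a legend of the study names quantile analysis. Later steps used Python 3.11.15, numpy 2.4.6, pandas 2.3.3 and matplotlib 3.10.9. Of 55681 mouse probes, 26300 matched 1 symbol through RefSeq accessions (GRCm38.p6, used for names and gene order as the array files use an older assembly), giving 19893 genes with a value on all 5 arrays. The probe brightest on average stood for its gene. Genes whose brighter side did not exceed the floor entered medians as 0. Per array, 0 spots were saturated. The steps were tested on data simulated from the ES array. Changes were planted only in bright probes, so recovery of changes in dim probes was not tested, and the high detection at Day2 was not simulated. With 1 array per time point no p-value, SD or interval between replicates could be given, and the number of arrays limits the precision of all values.

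Members, lists and rules were chosen with earlier results of these data known. Values on every array are given for the secretion and nuclear groups and for members with a log2 range of at least 2. In that range over the arrays, undetected values under the floor were raised to it. Other members are given by ranges, and from each other list the 3 largest changes past 2-fold from ES to Day7. Further values of other genes were chosen after they were seen. Sfrp2, Wnt16, Fzd9 and the other members outside this rule are named because every member is accounted for. The alternatives were the 75th percentile shift, normexp background correction (offset 50), the deposited log2 table, no filter on dim probes, only probes detected on both arrays, detection above the 95th percentile of the ERCC probes, and the mean over all probes. Quantile normalization without Day2 was added after seeing the data. Mnx1 and Prickle3 were not analysed here.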

Additional observations from a re-analysis of the deposited data

Results flagged for a closer look

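On the Day2 array 68.4% of the ERCC control spots, which match no mouse gene, were well above background, against 9.9% in ES cells, 6.1% on Day3, 12.0% on Day4 and 8.0% on Day7. Wnt2, Rspo4 and Dkk4 were detected on this array alone. Its 95th ERCC percentile lay at a log2 signal of 7.39, above the Day2 values of Wnt2 (6.40), Dkk4 (5.83) and Rspo4 (4.45) and below those of Wnt10b (11.04), Wnt8a (10.84) and Fzd6 (11.21).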

How the results depend on the processing

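Counts over all Wnt genes moved by more than 1.5 times from ES to Day2 only. The number of Wnt genes lowered there, 9 as reported, was 5 with the 75th percentile shift, 5 with the deposited log2 table, 5 with normexp background correction and 1 with detection above the ERCC probes. The number raised, 10 as reported, was 4 with normexp, 6 with detection required on both arrays and 6 with detection above the ERCC probes. The shares of all genes moved too, from 10.7% raised and 11.3% lowered to 20.9% and 7.01% with the shift, 20.9% and 7.03% with the deposited table, 5.23% and 4.6% with normexp, 5.81% and 13.9% with both arrays required and 7.35% and 5.61% with the ERCC level. The share of raised among changed genes was 52.6%, against 70.6% with the shift and with the deposited table, 40.0% with both arrays required and 85.7% with the ERCC level. Wnt9b changed sign at Day2 (0.06 with the shift and with the deposited table, -1.35 as reported). The cause was not tested. Counts over all Wnt genes in the other 4 comparisons stayed within 1.5 times under every alternative that was run, but counts within role groups and pathway lists did not. Ligands raised from Day4 to Day7 were 4 and with normexp 2, ligands lowered there 5 and with both arrays required 3, receptors lowered from ES to Day7 3 and in the alternatives 1 to 5, co-factors raised from ES to Day7 6 and with the shift 3, and surface regulators from Day4 to Day7 2 raised and 7 lowered and with normexp 0 and 4. With the shift, the median of all genes was -0.12 from ES to Day3, -0.25 from Day4 to Day7 and -0.35 from ES to Day7, and that of the Wnt genes 0.34, -0.72 and -0.30. Of 87 changes past 2-fold of the genes given in full, 55 stayed past it in the same direction under every alternative with a value, and 32 fell under it, or gave no fold above the floor, in at least 1. An alternative left 19 of the 87 without a value, and 47 were past 2-fold under all that were run. Changes past 2-fold of several other genes were over 1.5 times smaller with normexp, among them Wnt6 (-3.50) and Sfrp5 (-4.51) from Day4 to Day7, Lef1 (-3.34) and Wnt9b (1.11) from ES to Day7, Wnt11 (1.09) and Wnt3 (-1.34) from ES to Day3 and Wnt8a (-1.51) from Day3 to Day4. From ES to Day2, Wnt2 (3.09), Dkk4 (2.68) and Wif1 (2.59) were larger with the shift. Normalization without Day2, chosen after seeing the data, gave 6 raised and 20 lowered from Day4 to Day7. No paired analysis was possible because there were no replicate numbers to pair, with 1 array per time point. For the same reason no replicate could be left out. A block for the slide could not be fitted, since the second slide held the Day7 array and no other.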
